A study of Mus musculus with 8 samples.

Results

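Pax3 was 8.3-fold higher in hepatocytes lacking VWA8. It is the transcription factor that marks the dorsal neural tube, the neural crest and the muscle precursors of the embryo. Nrn1 (by 2.78 on the log2 scale) and Mitf (by 0.33) were higher too, and Pax7 lay lower (-0.53), short of the adjusted threshold given below. Sox10, Zic1, Tfap2a, Dct and Ret had overlapping signals in the 2 genotypes. The means of all of these but Tfap2a were too dim to be told from no expression. The genotypes did not overlap for 26.1% of all genes. The genes described here are Pax3, its paralog Pax7, the neural crest factors Sox10, Mitf, Msx1, Zic1 and Tfap2a, the lineage genes Dct and Ret, and Nrn1. They are 10 genes of the 22180 measured, and were chosen by name, Pax3 and Nrn1 because of their measured log2 differences between the genotypes and the others as their known partners, targets and paralogs. The differences are therefore given as a description, and no p-value is printed for any of the 10 genes in that contrast. Each gene is represented by the probe set that carries its symbol alone and, where there are several, has the highest mean over all 8 arrays. This left 9 genes with a value, each with 1 probe set. Msx1 has no value, because both of its 2 probe sets also carry the symbol Msx1os.

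The cells are AML12, a line of mouse hepatocytes established from the liver of an animal carrying a transgene for human TGF-alpha. The 4 knockout cultures (VWA8-null) had the VWA8 gene deleted by CRISPR/Cas9, and the 4 wild-type cultures (Wild type) had it intact. Both groups were differentiated and grew in serum-containing medium with insulin, transferrin, selenium and dexamethasone. Total RNA of each culture was hybridised to 1 Affymetrix mouse array. The labels do not say how many clones the knockout cultures came from, so what the deletion does and what sets one clone apart from its parent line cannot be told apart here.

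In the embryo, signals from the edge of the neural plate switch on a first set of factors, among them Pax3, Pax7, Zic1, Msx1 and Tfap2a. These lead to the neural crest, a migrating population in which Sox10 is active, and from which melanocytes, peripheral neurons and glia arise. In the melanocyte branch Pax3 and Sox10 act together on Mitf, which in turn drives pigment enzymes such as Dct. Sox10 and Pax3 also act on Ret, the receptor that guides enteric neurons. Liver hepatocytes come from the endoderm and are not a site where this set of genes is known to work.

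Values are log2 signals as deposited, so that a difference of 1 is a doubling. The medians of the 8 arrays lay between 4.27 and 4.33. The Vwa8 transcript averaged 8.95 ± 0.0414 (mean ± SD, n = 4) in wild-type and 5.18 ± 0.116 in knockout cells. Of 12 measured hepatocyte markers, 11 were higher in the knockout by limma (all but Asgr1, named after its value was seen), and the mean over these markers ran from 8.15 to 8.26 on the wild-type and from 9.17 to 9.29 on the knockout arrays. None of 12 fibroblast and stellate cell markers passed in limma (1 lower and 0 higher at an unadjusted p under 0.05), and their mean ran from 3.47 to 3.65 and from 3.46 to 3.60. Of the 12 hepatocyte markers, 11 were brighter than the middle gene, with genes ranked by the mean of the group with more signal. Of the genes above that middle, 37.8% passed in either direction, and of all genes 10.4% passed higher. All 12 fibroblast and stellate cell markers were dimmer than the middle gene, and 3.93% of such genes passed. That none of these 12 passed therefore says little. Olfactory receptor genes, which hepatocytes are not known to use, give an idea of how dim a signal can be without expression. The middle of their 1105 means was 2.22, and 5% of them exceeded 4.10. Probe sets differ in brightness for their own reasons, so this range does not rank genes, but a signal under about 4.10 cannot be told from no expression. In bulk RNA, fewer cells of a type and less RNA per cell cannot be told apart either.

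Of the 9 measured genes, 3 (Pax3, Nrn1 and Mitf) were past the limma threshold, an adjusted p of 0.05, with the knockout higher. With the knockout lower there were 0, or 1 (Pax7) at an unadjusted p under 0.05. Over all 22180 genes 20.9% passed, 10.4% higher and 10.4% lower. The arrays of the 2 genotypes did not overlap for 4 of the 9, Pax3, Nrn1 and Mitf with the knockout above and Pax7 with the knockout below, where 26.1% of all genes did not overlap. Since the genes were chosen with this contrast in view, nothing is read from these counts. The median difference over the 9 was 0.02, against -0.003 over all genes.

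**Figure D1:**
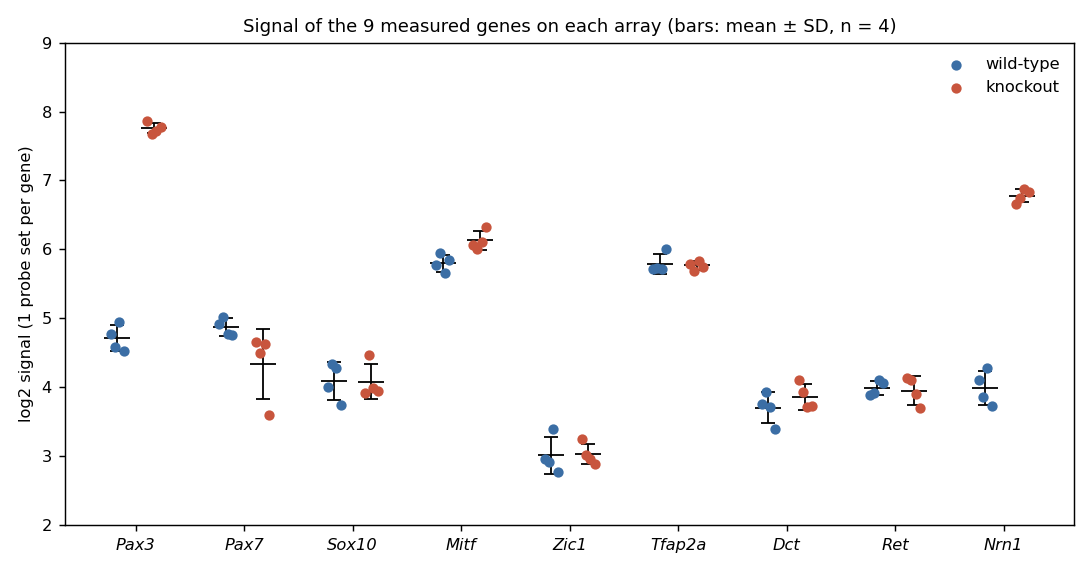
The log2 signal of each of the 9 measured genes (x axis) on every array, with wild-type arrays in blue and knockout arrays in red, and black bars for mean ± SD (n = 4). The knockout arrays of Pax3 (7.68 to 7.86) and Nrn1 (6.66 to 6.88) lie far above their wild-type arrays, while Sox10, Zic1, Tfap2a, Dct and Ret overlap.

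Pax3 is a paired box and homeodomain factor that keeps precursors of muscle and of the melanocyte line in an uncommitted state. Its gene lies on chromosome 1 (78101267 to 78197136 in assembly GRCm38.p6, Entrez Gene 18505, probe set 17224684). Its log2 signal was 4.77, 4.58, 4.94 and 4.53 on wild-type arrays 1 to 4, and 7.86, 7.68, 7.72 and 7.77 on knockout arrays 1 to 4. Every knockout array was above every wild-type array, and the gap between the nearest pair, 2.74, was many times the spread within either group. The group means were 4.71 ± 0.189 and 7.76 ± 0.0768 (SD, n = 4 each), a difference of 3.05 ± 0.0969 (SE) on the log2 scale. This was the rise ranked 4 among all 22180 genes. Only 0.987% of genes passed the threshold with a rise of at least 2-fold.

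Pax7 is the closest relative of Pax3 and the marker of muscle satellite cells. On its probe set 17431910 (chromosome 4, 139737059 to 139833530, Entrez Gene 18509) the wild-type arrays read 4.92, 5.02, 4.77 and 4.75, and the knockout arrays 4.66, 4.49, 4.63 and 3.59. All knockout arrays lay below all wild-type arrays, by only 0.10 at the nearest pair, and knockout replicate 4 stood well below the other knockout arrays. The difference was -0.53 ± 0.221 (95% interval -1.03 to -0.02) and did not pass the adjusted threshold. Without knockout replicate 4 it was -0.27 ± 0.0881 and again did not pass. The knockout arrays of Pax7 thus lay below, and those of Pax3 above, their wild-type arrays.

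Of the factors of the neural plate border other than Pax3 and Pax7, Zic1 and Tfap2a overlapped between the genotypes and Msx1 had no value. Zic1, a zinc finger factor that acts with Pax3 to induce neural crest, read 2.95, 2.92, 3.39 and 2.77 in wild-type cells and 3.24, 3.02, 2.96 and 2.89 in knockout cells. These signals overlap and lie within the range of the olfactory receptor genes, and the difference was 0.02 ± 0.136 (95% interval -0.29 to 0.33). Tfap2a, an AP-2 factor of the neural crest and of surface ectoderm, read 5.71, 5.73, 5.72 and 6.01 in wild-type and 5.79, 5.69, 5.83 and 5.75 in knockout cells. It was brighter than the olfactory range in both genotypes, and the groups overlapped, at -0.03 ± 0.0809 (-0.21 to 0.15).

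Sox10, an HMG box factor that partners Pax3 at the melanocyte and enteric genes, overlapped as well. It read 4.00, 4.33, 4.28 and 3.74 on the wild-type arrays and 3.91, 4.47, 3.99 and 3.95 on the knockout arrays. The groups overlapped over most of their range, and their means of 4.09 ± 0.271 and 4.08 ± 0.259 (SD, n = 4) were at the dim end. The difference was -0.01 ± 0.162, with a 95% interval of -0.37 to 0.36. A change of the size measured for Pax3 lies outside that interval.

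Mitf, the basic helix-loop-helix factor at the head of the pigment program, was slightly higher in the knockout. Its probe set 17461132 (chromosome 6, 97807002 to 98021360, Entrez Gene 17342) read 5.77, 5.94, 5.66 and 5.85 in wild-type cells and 6.07, 6.01, 6.11 and 6.33 in knockout cells. All knockout arrays were above all wild-type arrays, by 0.07 at the nearest pair. The difference of 0.33 ± 0.0902 (95% interval 0.12 to 0.53), a 1.25-fold rise, stands close to the threshold. It passed with all 8 arrays and missed without knockout replicate 1, 3 or 4 and without wild-type replicate 1, 3 or 4, at 0.26 to 0.35. Mitf has several start sites used in different cell types, and 1 probe set does not tell them apart. Its relatives in the same factor family did not pass either way, with differences of -0.16 ± 0.0576 for Tfe3 (limma adjusted p = 0.0802), 0.06 ± 0.0626 for Tfeb (adjusted p = 0.619) and 0.11 ± 0.110 for Tfec (adjusted p = 0.590), all 3 named after their values were seen. Tfe3 was past the threshold, with the knockout lower, in 3 of 17 alternatives.

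Dct, dopachrome tautomerase, is a pigment enzyme whose gene is a target of Mitf and Sox10. It read 3.75, 3.93, 3.71 and 3.39 in wild-type and 4.10, 3.93, 3.71 and 3.72 in knockout cells. The groups overlapped within the dim range, and the difference was 0.17 ± 0.131 (95% interval -0.13 to 0.47). Ret, the receptor tyrosine kinase for GDNF family ligands, read 3.89, 3.91, 4.10 and 4.06 in wild-type and 4.13, 4.10, 3.90 and 3.69 in knockout cells. Its difference was -0.03 ± 0.107 (-0.28 to 0.21), and the groups overlapped again.

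Promoter sequences from RefSeq (GRCm38.p6) were at hand for 6 of the 10 genes, with 9 start sites in all. Those of Mitf start 3, counted from the 5′ end of the gene, and of Dct are shown because Mitf and Dct are the genes of this group through which Pax3 and Sox10 are known to reach the pigment program. Each run gives the 250 bases before the start, 5′ to 3′ on the strand of the gene, at chr6:97991533-97991782 (plus strand) for Mitf and chr14:118052247-118052496 (minus strand) for Dct. Capitals mark any match, on either strand, to CATGTG (the E-box of Mitf) or ACAAAG (a SOX core). The PAX paired-domain core GTCACNC and the PAX homeodomain pair (TAAT and ATTA with 2 bases between them) were searched too.
Mitf start 3: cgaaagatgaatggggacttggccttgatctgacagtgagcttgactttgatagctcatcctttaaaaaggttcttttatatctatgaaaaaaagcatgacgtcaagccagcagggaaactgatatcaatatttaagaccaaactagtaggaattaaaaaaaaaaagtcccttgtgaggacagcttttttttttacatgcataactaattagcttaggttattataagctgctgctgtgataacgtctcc
Dct: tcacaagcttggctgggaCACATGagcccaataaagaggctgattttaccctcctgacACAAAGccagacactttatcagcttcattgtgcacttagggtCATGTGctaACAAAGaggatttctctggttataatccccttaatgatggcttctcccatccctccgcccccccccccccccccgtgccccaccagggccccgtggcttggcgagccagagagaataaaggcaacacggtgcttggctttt
The Dct run holds CATGTG at 232 and 150 bases before the start (the first on the opposite strand) and ACAAAG at 192 and 141 bases, counted to the first base of each match. Of 32851 promoter windows of the same length, 12.3% hold CATGTG, 16.5% ACAAAG, 11.7% GTCACNC and 0.384% the homeodomain pair. The other 8 windows of these genes, Mitf start 3 among them, held none of the 4 motifs. A match is no evidence of binding, and no match says only that these letters are not in this window.

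Nrn1 encodes neuritin, a small GPI-anchored protein of neurons that promotes the growth of neurites. Its gene lies on chromosome 13 (36725622 to 36734477, Entrez Gene 68404, probe set 17291874). The wild-type arrays read 4.11, 3.86, 4.28 and 3.73, and the knockout arrays 6.66, 6.74, 6.88 and 6.83. The wild-type signals were at the edge of the dim range and every knockout array was above it, with a gap of 2.38 between the nearest pair. The means were 3.99 ± 0.250 and 6.78 ± 0.0951 (SD, n = 4), a difference in signal of 2.78 ± 0.121 (SE, log2), ranked 8 among the rises of all genes. The wild-type mean lay under 4.10 and cannot be told from no expression, so this difference is one of signals and gives no exact fold of RNA.

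**Figure D2:**
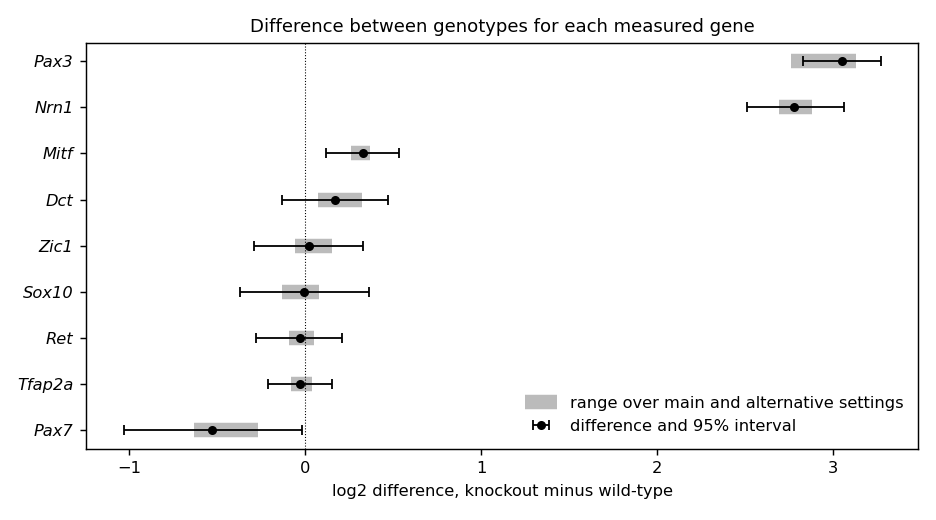
The log2 difference of knockout minus wild-type (x axis) for each measured gene, with points for the estimate, black bars for its 95% interval and grey bars for the range over the main and alternative settings. Pax3 (3.05) and Nrn1 (2.78) stand apart, Mitf (0.33) follows at a distance, and the other genes but Pax7 have intervals across 0.

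No paralog of these genes passed higher beside Pax3. Of 21 measured relatives in the PAX, SOX E, MiT, MSX, ZIC and AP-2 families, 0 rose and 1 fell in limma, where 20.9% of all genes passed (1 higher and 2 lower at an unadjusted p under 0.05). The gene that fell was Pax8, a factor of thyroid and kidney, at 4.28, 4.24, 4.56 and 4.42 in wild-type and 3.80, 3.95, 3.44 and 3.91 in knockout cells. Its difference was -0.60 ± 0.123 (limma adjusted p = 0.00812). Sox9, a factor of cartilage and bile duct cells that is bright in this line, stood at 10.07 and 10.18 in the 2 genotypes (difference 0.11 ± 0.0525, adjusted p = 0.210), and Pax2 at 7.10 and 7.02 (-0.09 ± 0.0749, adjusted p = 0.501). These 2 were picked after their values were seen. Sox9 was past the threshold in 1 of 17 alternatives. The median difference over the 21 was 0.04, and 16 of them were among the dimmer 50% of all genes (ranked by the mean of the group with more signal), of which 3.93% passed against 37.8% of the brighter 50%.

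Of 27 measured factors known to act upstream of Pax3 or with it, 1 rose and 5 fell, or 22.2% against 20.9% of all genes, with a median of -0.02. Of the 27, 17 were among the brighter genes, of which 37.8% passed, and 10 among the dimmer, of which 3.93% passed. Tead2, a TEAD factor that activates the Pax3 enhancer of the neural crest, read 6.49, 6.31, 6.45 and 6.30 in wild-type and 5.42, 5.23, 5.39 and 5.13 in knockout cells. The groups were far apart, and Tead2 fell by 1.10 ± 0.0849 on the log2 scale (SE, limma adjusted p = 3.42e-05). Whether this fall is linked to the rise of Pax3 was not tested. Of the relatives of Tead2, Tead4 fell by 0.48 ± 0.105 (adjusted p = 0.0111) and Tead1 by 0.20 ± 0.054 (adjusted p = 0.0266). Neighbour subtraction below means that the median change of the 30 brighter genes closest on either side was taken off. Tead1 missed the threshold without knockout replicate 1, 3 or 4 and without wild-type replicate 1 or 4 (-0.20 to -0.18), and with neighbour subtraction (-0.15). Tead3 stood at 0.19 ± 0.110 (adjusted p = 0.296), and their coactivators Yap1 at -0.16 ± 0.0669 (adjusted p = 0.130) and Wwtr1 at -0.05 ± 0.0589 (adjusted p = 0.628), though Wwtr1 was at -0.33 and past the threshold with neighbour subtraction. Yap1 was past it in 2 of 17 alternatives. Trim28, a corepressor that binds Pax3, fell by 0.41 ± 0.0689 (adjusted p = 0.00292). Eya1, a phosphatase and coactivator of homeodomain factors, fell by 0.32 ± 0.061 (adjusted p = 0.00507), or by 0.63 with neighbour subtraction. Meis2, a homeodomain factor, rose by 0.24 ± 0.0728 (adjusted p = 0.0454), close to the threshold. It missed without any 1 array other than wild-type replicate 4 (0.20 to 0.27), and stood at 0.09 with neighbour subtraction. The signals of the inducing ligands Wnt1, Wnt3a and Fgf8 were dim in both genotypes and did not pass. Tead1, Meis2, Tead3, Yap1, Wwtr1 and the ligands were named after their values were seen.

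Of 26 measured Pax3 targets outside this group, 1 rose and 3 fell, or 15.4% against 20.9% of all genes, with a median of -0.09. Of the 26, 17 were among the dimmer genes, of which 3.93% passed, and 9 among the brighter, of which 37.8% passed. Cdh11, an adhesion protein of mesenchyme and migrating crest, rose by 0.46 ± 0.10 (limma adjusted p = 0.0106), from a mean of 3.52 to 3.98, both under 4.10. Tgfb2, a ligand of the TGF-beta family, fell by 0.65 ± 0.10 (adjusted p = 0.00168). Pxn, the focal adhesion protein paxillin, fell by 0.34 ± 0.0742 (adjusted p = 0.0115), but missed at -0.23 with neighbour subtraction (adjusted p = 0.0610, with 0.00163 to 0.0610 over all alternatives). Prkaa2, a catalytic subunit of AMP-activated kinase, fell by 0.32 ± 0.0743 (adjusted p = 0.0135). The receptors Met and Fgfr4, both well-known Pax3 targets in muscle precursors and bright in this line, stood at 0.11 ± 0.0538 (adjusted p = 0.194) and 0.15 ± 0.0649 (adjusted p = 0.148). The arrays of Met did not overlap, with the knockout above, as was so in either direction for 26.1% of all genes. Met was past the threshold in 1 of 17 alternatives. Myf5 and Myod1, which Pax3 turns on in the muscle lineage, stood at 0.18 ± 0.147 (adjusted p = 0.472) and -0.24 ± 0.146 (adjusted p = 0.331). Met, Fgfr4, Myf5 and Myod1 were picked with their values known. The list was drawn up from general knowledge of Pax3 in embryonic tissue and carries no measurement of Pax3 binding in these cells.

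Neural crest specifiers and migration genes went both ways. Of 43 measured, 5 rose and 5 fell, or 23.3% against 20.9% of all genes, with a median of -0.03. Of the 43, 24 were among the dimmer genes, of which 3.93% passed, and 19 among the brighter, of which 37.8% passed. Cdh6, a cadherin of the early crest and of kidney, fell by 0.87 ± 0.057 from a mean of 11.22 (limma adjusted p = 1.34e-05). Ets1 fell by 0.82 ± 0.0604 (adjusted p = 2.61e-05) and Myc by 0.67 ± 0.0694 (adjusted p = 0.000176). Snai2, the zinc finger factor of crest delamination, read 8.73, 8.93, 9.14 and 8.86 in wild-type and 8.09, 8.25, 8.17 and 8.30 in knockout cells, a fall of 0.71 ± 0.093 (adjusted p = 0.000679). Whether this fall is linked to the rise of Pax3 was not tested. Sox5, an SOX D factor of crest and cartilage, rose by 0.67 ± 0.0802 (adjusted p = 0.000393), Bmp4 by 0.70 ± 0.0893 (adjusted p = 0.00060) and Mycn by 0.67 ± 0.112 (adjusted p = 0.00278). The other genes that passed were Cdh11, Lmo4 (0.22 ± 0.0605) and Id1 (-0.44 ± 0.104). Lmo4 missed without any 1 array other than wild-type replicate 2 (0.19 to 0.23), and stood at -0.03 with neighbour subtraction. Foxd3, a core crest specifier, stood at -0.10 ± 0.0729 (adjusted p = 0.409), Snai1 at -0.16 ± 0.179 (adjusted p = 0.608) and Twist1 at -0.07 ± 0.0629 (adjusted p = 0.502). Without wild-type replicate 4, Snai1 was at -0.36 and past the threshold, with both group means under 4.10 over all arrays. Apart from Cdh6, Ets1, Myc and Sox5, these genes were picked with their values known.

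**Figure D3:**
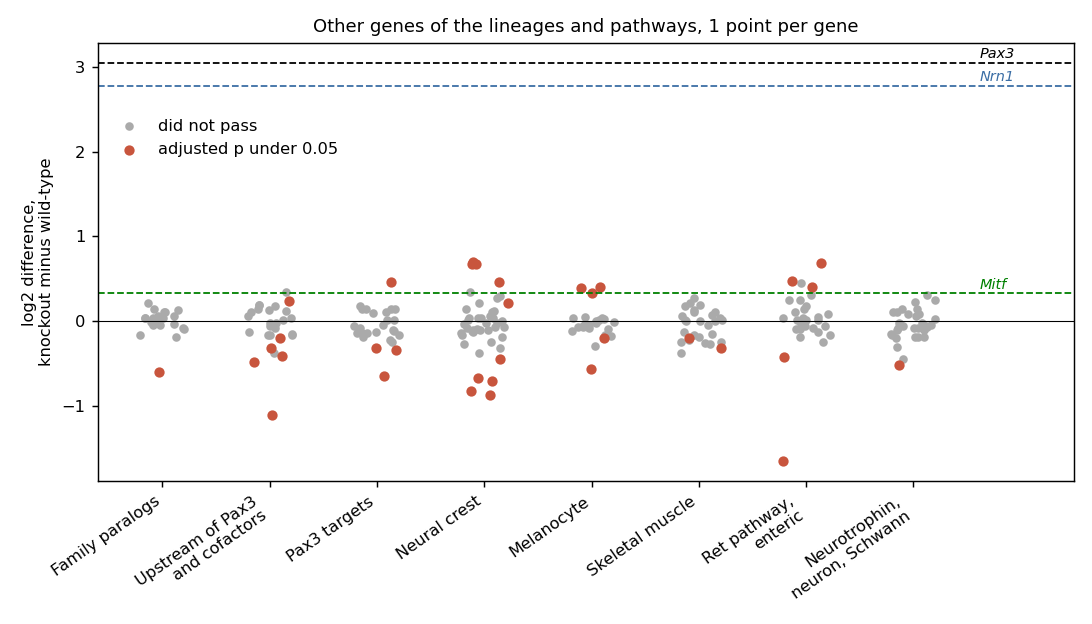
The log2 difference of knockout minus wild-type (y axis) for every measured gene of 8 lists (x axis), red where the limma adjusted p was under 0.05 and grey otherwise, with dashed lines at Pax3, Nrn1 and Mitf. No gene of the lists comes near Pax3 or Nrn1: the highest is Bmp4 at 0.70 and the lowest Nrg1 at -1.65, and some genes are on more than 1 list.

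Of 25 measured melanocyte genes, 3 rose and 2 fell, or 20.0% against 20.9% of all genes, with a median of -0.04. Of the 25, 15 were among the dimmer genes, of which 3.93% passed, and 10 among the brighter, of which 37.8% passed. Sema3c, a secreted guidance protein, fell by 0.56 ± 0.0609 (limma adjusted p = 0.000224). Lyst, which acts in lysosome traffic, rose by 0.40 ± 0.0729 (adjusted p = 0.00446) and Rab27a, which tethers pigment granules and other secretory vesicles, by 0.39 ± 0.0973 (adjusted p = 0.0192), from a wild-type mean of 3.77, under 4.10. Pikfyve, a lipid kinase of endosomes, rose by 0.33 ± 0.0631 (adjusted p = 0.00536), but stood at 0.03 with neighbour subtraction (adjusted p = 0.766, with 0.000135 to 0.766 over all alternatives). Hps1 was the other gene that fell, at -0.20 ± 0.0586. It missed without each single array (-0.22 to -0.18), and stood at -0.05 as the mean of its probe sets. Genes that define pigment cells had overlapping groups, under 4.10 except for Mlana just above it: Tyr, tyrosinase, at 2.85 and 2.78 in the 2 genotypes, Tyrp1 at 3.62 and 3.63, Pmel at 3.97 and 3.93, Mlana at 4.25 and 4.25, and Kit at 3.44 and 3.35. Hps1 and these 5 were named after their values were seen. Without wild-type replicate 3 the list had 3 genes past the threshold, with Rab27a at 0.38 and adjusted p = 0.0513 (0.0126 to 0.0513 over all alternatives).

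Of 28 measured skeletal muscle genes, 0 rose and 2 fell in limma, or 7.14% against 20.9% of all genes (3 higher and 2 lower at an unadjusted p under 0.05; median 0.00). Of the 28, 20 were among the dimmer genes, of which 3.93% passed, and 8 among the brighter, of which 37.8% passed. The 2 were Eya1, given above, and Mef2a, a widely expressed MADS box factor, at -0.20 ± 0.0562 (adjusted p = 0.0322). Mef2a missed without knockout replicate 1, 2 or 3 and without wild-type replicate 2, 3 or 4 (adjusted p from 0.000627 to 0.125 over all alternatives), and the list then had 1 gene past the threshold, except without wild-type replicate 4. Myog and Ckm, which mark differentiating muscle, had overlapping groups, at 4.55 and 4.37 for Myog and, under 4.10, 3.91 and 3.91 for Ckm (both named after their values were seen).

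Of 29 measured genes of Ret signalling and the enteric lineage, 3 rose and 2 fell, or 17.2% against 20.9% of all genes, with a median of 0.02. Of the 29, 20 were among the dimmer genes, of which 3.93% passed, and 9 among the brighter, of which 37.8% passed. Of the ligands, Gdnf and Artn were under 4.10 in both genotypes, and Nrtn (4.50 and 4.42) and Pspn (4.36 and 4.34) a little above it. The ligands Gdnf, Nrtn, Artn and Pspn and the co-receptors Gfra1 to Gfra4 did not pass, and the nearest to the threshold was Gfra1 at 0.45 ± 0.141 (limma adjusted p = 0.0530). Gfra1 was past it in 6 of 17 alternatives, among them that without knockout replicate 4 (0.52). It stood at 0.36 without wild-type replicate 1 (adjusted p = 0.125). As the mean of its 2 probe sets it stood at only 0.18 (adjusted p = 0.197). Gab1 and Grb7, adaptors shared by many receptor kinases, rose by 0.69 ± 0.0644 (adjusted p = 9.54e-05) and 0.41 ± 0.0628 (adjusted p = 0.00164). Ece1, which activates endothelins, rose by 0.48 ± 0.0617 (adjusted p = 0.000599). Nrg1, a ligand of ERBB receptors that supports crest-derived glia, read 9.12, 9.19, 9.13 and 9.26 in wild-type and 7.46, 7.42, 7.58 and 7.64 in knockout cells. It fell by 1.65 ± 0.0694 (adjusted p = 1.47e-06), the largest change among the 200 genes of the lists. Spry2, an inhibitor of receptor kinase signalling, fell by 0.42 ± 0.0752 (adjusted p = 0.00409), or by 0.26 with neighbour subtraction. It was named after its value was seen, as were the ligands and co-receptors.

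Of 32 measured genes of neurotrophin signalling, neurons and Schwann cells, 0 rose and 1 fell in limma, or 3.12% against 20.9% of all genes (1 higher and 3 lower at an unadjusted p under 0.05; median -0.05). Of the 32, 23 were among the dimmer genes, of which 3.93% passed, and 9 among the brighter, of which 37.8% passed. The fall was that of Nr4a1, an immediate early nuclear receptor, at -0.51 ± 0.0901 (adjusted p = 0.00381). Bdnf, the neurotrophin known to induce Nrn1 in neurons, stood at -0.03 ± 0.0557 (adjusted p = 0.762), and the neuronal genes Tubb3 at -0.45 ± 0.141 (adjusted p = 0.0524) and Gap43 at -0.04 ± 0.135 (adjusted p = 0.893). Bdnf was past the threshold at -0.21 with neighbour subtraction, and Tubb3 at -0.31 without wild-type replicate 4. These 3 were picked with their values known. The count was 2 without knockout replicate 3, 3 without wild-type replicate 3 and 2 without wild-type replicate 4. The mean over the list ran from 4.09 to 4.21 on wild-type and from 4.07 to 4.15 on knockout arrays, which overlap.

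Over all 8 lists, with each gene counted once, 32 of 200 measured genes passed, 12 higher and 20 lower. That is 16.0%, against 20.9% of all genes. Of the 200, 125 were among the dimmer genes, of which 3.93% passed, and 75 among the brighter, of which 37.8% passed. The median difference was -0.04. Of the 218 genes listed, 18 had no probe set with a single symbol.

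The genes beside Pax3 on chromosome 1 were named by rule. In the wider region, the 30 nearest genes on each side with a mean above that of the median gene had a median change of 0.29. Among the 5 measured genes nearest to it in each direction, 1 rose and 1 fell. Farsb, a subunit of phenylalanyl-tRNA synthetase that starts 317 kb after Pax3 does, rose by 0.54 ± 0.0631 (limma adjusted p = 0.000342). Epha4, an ephrin receptor whose start is at -734 kb relative to that of Pax3, fell by 0.71 ± 0.0882 (adjusted p = 0.000483). The nearest measured genes, Gm2102 and Sgpp2, stood at -0.05 ± 0.0909 (adjusted p = 0.795) and 0.06 ± 0.193 (adjusted p = 0.880). The other 6 (Inha, Stk11ip, Slc4a3, Gm17751, Mogat1 and Kcne4) ran from -0.08 to 0.35 and did not pass. Subtracting the shift of each gene's wider region left Pax3 at 2.76, Farsb at 0.25, Epha4 at -1.01 and Slc4a3, the highest of those 6, at 0.05. It also put Gm2102 at -0.34 and past the threshold (limma adjusted p = 0.028). Over all alternatives, Inha was past the threshold in 1 and Slc4a3 in 5. For Nrn1 the shift of its region was 0.01, and for Mitf 0.00.

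**Figure D4:**
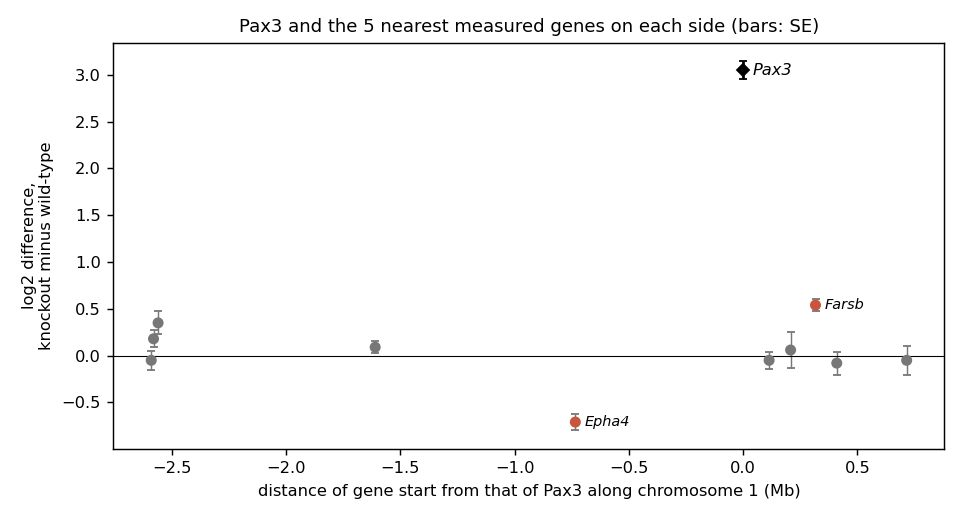
The log2 difference of knockout minus wild-type (y axis, bars SE) for Pax3 and the 5 measured genes nearest to it in each direction, against the distance between gene starts in Mb (x axis), with Pax3 as a black diamond and its neighbours red where the limma adjusted p was under 0.05 and grey otherwise. Pax3 at 3.05 stands above all 10 neighbours, which run from -0.71 (Epha4) to 0.54 (Farsb).

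The genes whose signal followed that of Pax3 most closely over the 8 arrays were Tceal5, Serpinf2, Pde4dip, Rbl2 and Aldh7a1, with Pearson correlations of 0.9986, 0.9985, 0.9982, 0.9977 and 0.9976. Serpinf2, alpha-2-antiplasmin, is a plasma protein of hepatocytes and rose by 2.82 ± 0.076, Aldh7a1, a lysine-degrading dehydrogenase, by 1.14 ± 0.0613 and Rbl2, a pocket protein, by 0.65 ± 0.0521. Tceal5 rose by 1.26 ± 0.0589 and Pde4dip, a centrosomal protein, by 0.83 ± 0.0537. These correlations mostly repeat the step between the genotypes, which all 8 arrays share, and 8.11% of the genes above the median brightness had a correlation over 0.95 with Pax3. For Nrn1 the 3 closest were Aldoc (0.9974), Pax3 itself (0.9973) and Fgg (0.9971), a glycolytic aldolase, the paired box factor and a fibrinogen chain. The correlation of Mitf with Pax3 was 0.795.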

How the data were processed

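Total RNA of 8 AML12 cultures, 4 wild-type and 4 knockout, was labelled with biotin and hybridised to Affymetrix arrays, per the labels' protocols. The authors deposited 1 log2 signal per probe set and array. The log2 scale was read from the values, and how the signals were background-corrected, normalized and summarised is not stated in the labels. Of 41345 probe sets, 23521 had 1 gene symbol in the platform annotation, 1814 several and 16010 none listed. Positions are those of assembly GRCm38.p6, matched by Entrez identifier for 21991 of 22180 genes.

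Genotypes were compared on the values as deposited with limma 3.58.1 (R 4.3.3), lmFit and eBayes with genotype as the only term, two-sided, with Benjamini-Hochberg adjustment over all 22180 genes and a threshold of 0.05. The 10 genes and all lists were chosen with earlier results of these data known. Lists are described by counts and medians, and the 10 genes were left out of them. Named by rule were the 10 genes, Vwa8, up to 4 genes with the smallest adjusted p among those that passed in each list, the 5 measured genes nearest to Pax3 in each direction, and the 5 and 3 genes most correlated with Pax3 and Nrn1 among those brighter than the median. The fit was tested on simulated data. The 95% intervals, the olfactory receptor range and the split by brightness were added after the data were seen, and 46 further genes were named with their values known. Tried as alternatives were a term for the replicate number, quantile normalization, centring each array on its median, robust limma variances with a trend on intensity, weighting arrays, omission of probe sets in the dimmest 25% or 50%, averaging all probe sets of a gene, subtraction of the local shift (the median change of the 30 brighter genes closest on either side), and omission of each array in turn. The number of arrays limits the precision. Plots used matplotlib 3.10.9 with Python 3.11.15.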

Additional observations from a re-analysis of the deposited data

Results flagged for a closer look

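Within groups of 4 arrays, 18 groups of values of the 9 measured genes were examined for a single array far from the other 3, by Dixon's criterion at 95%. Chance alone flags about 1 in 20 groups, and 3 were found. Pax7 read 3.59 on knockout replicate 4, against 4.49 on the nearest other knockout array. Sox10 read 4.47 on knockout replicate 2, against 3.99 on the nearest. Tfap2a read 6.01 on wild-type replicate 4, against 5.73 on the nearest. The 3 values were on 3 different arrays.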

How the results depend on the processing

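Over 17 alternatives Pax3 stayed between 2.76 and 3.13 and Nrn1 between 2.69 and 2.88, past the threshold in each. For 40 of the 50 genes named by rule, and for 33 of the 46 named after their values were seen, every alternative that could be fitted kept the call. Of the genes that had passed, 1, Lmo4, turned direction (0.22 to -0.03 with neighbour subtraction). Genes that had not passed, such as Sox10 (-0.13 to 0.08) and Stk11ip (-0.14 to 0.23), changed sign too. With the dimmest 25% of probe sets left out Zic1 had no value, and with 50% left out Sox10, Dct and Ret had none either. The same-numbered arrays of the 2 genotypes hardly deviated together (correlations 0.059, -0.002, 0.022 and 0.026). Wild-type arrays 1 and 3 correlated best with the knockout array of the same number. Wild-type array 2 correlated best with knockout array 4 (0.019), and wild-type array 4 with knockout array 2 (0.041). The numbers were therefore not taken to pair the samples. With the replicate number as a block 3717 genes passed against 4626, the factors upstream of Pax3 had 3 genes past the threshold against 6 (Tead4, Tead1 and Meis2 missed it), the neuronal list 3 against 1, and Mitf (0.33), Mef2a (-0.20), Prkaa2 (-0.32), Lmo4 (0.22) and Hps1 (-0.20) missed it, while Slc4a3 (0.35), Gfra1 (0.45) and Tubb3 (-0.45) passed. With an intensity trend and robust variances the muscle list had 4, the paralogs 3 and the neuronal list 2. With array weights the neuronal list had 3. With median centring the muscle list had 1. With neighbour subtraction the muscle list had 1, the paralogs 2 and the neuronal list 4. Without the dimmest 25% of probe sets the paralogs had 2 and the neuronal list 3, and without the dimmest 50% the muscle list had 4, the neuronal list 2 and the factors upstream of Pax3 10. Leaving out single arrays gave 3 to 4 genes for the melanocyte list, 1 to 3 for the muscle list, 1 to 3 for the neuronal list, 4 to 6 for the factors upstream of Pax3 and 2 to 3 of the 9 measured genes. The cause of these moves was not tested. Signals near the dim range carry no information on whether a gene is expressed.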
